A study of Mus musculus with 4 samples.

Results

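Ahrr encodes the aryl hydrocarbon receptor repressor, and its RNA was followed here in mouse embryonic stem (ES) cells under 3 kinase inhibitors, with BIO as the treatment of interest. The gene was chosen with earlier results of these data known, so its place among other genes is not that of a gene drawn blind. A supplementary table pairs its symbol with a probe of the array, and it is 1 of the 25030 genes for which the authors deposited a value. A single probe, Z00023613-1, carries this symbol, and it was printed once on each array.

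RNA came from B6R(5) ES cells, a male line of the C57BL/6 strain, grown without feeder cells in complete ES medium. There were 4 cultures, 1 with DMSO alone, 1 with the FGFR inhibitor PD173074, 1 with the MEK inhibitor PD98059 and 1 with the GSK-3 inhibitor BIO, called GSK inhibitor from here on. PD173074 was given at 100, PD98059 at 25 and BIO at 2 μM, although one of the sources prints the same numbers in mM. Treatment began 24 hr after plating and lasted 48 hr, and every culture, the control included, held 0.2% DMSO. Each RNA was labeled with Cy3 and hybridized to 1 array together with a Cy5-labeled reference pooled from mouse cell lines, and all 4 arrays lay on 1 slide. Each condition has 1 array, so no value has a replicate check and no p-value is given.

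Ahrr belongs to the family of basic helix-loop-helix PAS proteins. Its relative, the aryl hydrocarbon receptor (AhR), rests in the cytoplasm in a complex with Hsp90 and p23. After binding a ligand it moves to the nucleus, pairs with Arnt and activates genes whose promoters hold its response element, among them cytochrome genes of the Cyp1 family. Ahrr also pairs with Arnt and occupies such elements without activating them, and in many cell types the Ahrr gene is itself switched on by AhR, which forms a feedback loop. BIO is an indirubin, a class of compounds known to bind AhR, and the flavone PD98059 is known to bind it too. Binding to AhR was not measured on these arrays.

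The probe is shown because every value of Ahrr rests on it. Its 60 bases, 41.7% of them G or C, read 5′ to 3′ as follows, and it was not placed in the transcript here.
Z00023613-1: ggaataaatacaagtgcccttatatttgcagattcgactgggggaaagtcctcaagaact

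With GSK inhibitor the Cy3 signal of Ahrr was the highest of the 4 arrays, while the Cy5 signal of the reference was nearly the same on all of them. After the background subtraction and dye correction of the Feature Extraction software, which give what is called here the processed signal, Cy3 of Ahrr was 73.5 under DMSO, 47.9 under FGFR inhibitor, 65.7 under MEK inhibitor and 179 under GSK inhibitor, in intensity units. The error that the software gives to these signals was 9.26, 7.42, 8.62 and 19.0. Within 1 such error, the ranges of DMSO and MEK inhibitor overlapped, that of FGFR inhibitor lay below both, and that of GSK inhibitor lay far above the rest. The processed Cy5 signal was 239 under DMSO, 247 under FGFR inhibitor, 242 under MEK inhibitor and 244 under GSK inhibitor, with errors between 24.1 and 25.0. Its highest value was thus 1.03 times the lowest, whereas the highest Cy3 value was 3.73 times the lowest. In these bulk cultures, more RNA per cell cannot be told apart from more cells that express the gene.

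**Figure D1:**
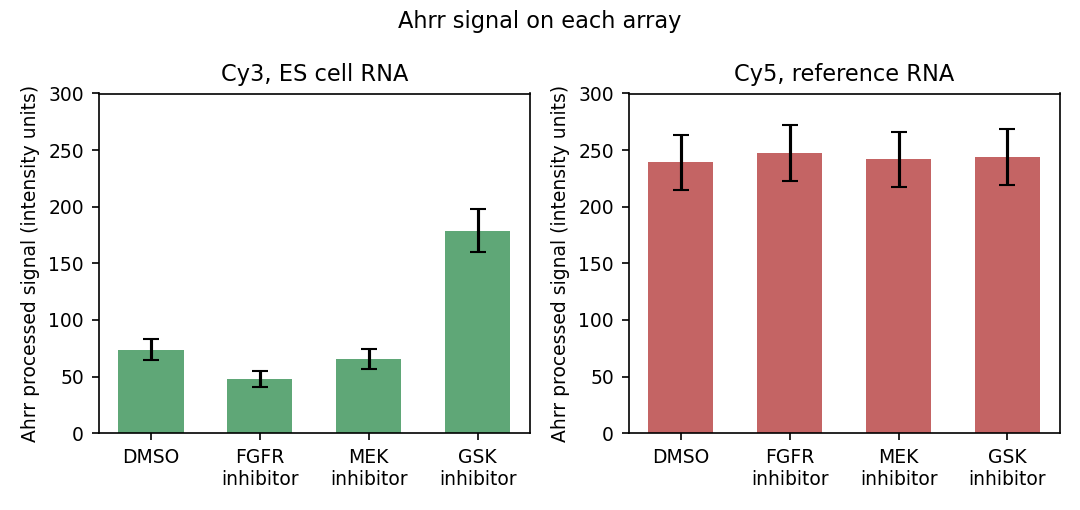
Processed signal of the Ahrr probe in intensity units on each of the 4 arrays (x axis), with Cy3 for ES cell RNA on the left and Cy5 for the common reference on the right. Bars are the value of 1 spot and error bars the signal error given by Feature Extraction; Cy3 reached 179 with GSK inhibitor and lay between 47.9 and 73.5 on the other arrays, while Cy5 lay between 239 and 247.

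The ratio of processed Cy3 to Cy5 was 0.308 under DMSO, 0.194 under FGFR inhibitor, 0.272 under MEK inhibitor and 0.732 under GSK inhibitor. ES cell RNA thus gave a lower signal than the reference at this spot on every array, but dyes were not exchanged, and a dye bias of the probe cancels only in differences between arrays. On the log2 scale the ratios were -1.70, -2.37, -1.88 and -0.45, with software errors of 0.27, 0.31, 0.28 and 0.21.

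Ahrr is a dim spot in Cy3, so its signal was followed back to the scanner. The mean Cy3 intensity over the pixels of the spot was 63.8 under DMSO (pixel SD 10.0, 61 pixels), 60.9 under FGFR inhibitor (9.08, 62 pixels), 67.5 under MEK inhibitor (12.6, 63 pixels) and 93.6 under GSK inhibitor (13.9, 64 pixels). The local background had a median of 40, 38, 40 and 40 on these arrays. The difference between GSK inhibitor and DMSO was 29.8 units, with a standard error of 2.2 from the pixels, which covers the evenness of the spot only and not a second culture or array. The difference of FGFR inhibitor from DMSO was -2.92 units, with a standard error of 1.7, and that of MEK inhibitor was 3.71, with a standard error of 2.0.

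Each array held 153 negative control spots, which should bind no RNA. Their median Cy3 mean intensity was 45.7 under DMSO, 47.3 under FGFR inhibitor, 48.1 under MEK inhibitor and 48.3 under GSK inhibitor, and their highest was 51.7, 58.7, 52.5 and 55.1. Ahrr was brighter than all 153 on each of the 4 arrays, but with FGFR inhibitor only narrowly. Above the median of the negative controls, Ahrr had 18.1 units under DMSO, 13.6 under FGFR inhibitor, 19.4 under MEK inhibitor and 45.3 under GSK inhibitor. By the flag of the software, both Cy3 and Cy5 of Ahrr were well above background on all 4 arrays, and the spot was neither saturated nor flagged as an outlier.

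How large the difference with GSK inhibitor is depends on how this small net signal is treated. The main processing used the normexp background correction of limma and a loess fit of the log2 ratio of Cy3 to Cy5 within each array. Normexp added an offset of 50 to all signals, a constant that draws the changes of dim spots toward 0. The normalized log2 ratio of Ahrr was -0.80 under DMSO, -0.91 under FGFR inhibitor, -0.83 under MEK inhibitor and -0.28 under GSK inhibitor. Subtracting the DMSO value gave a log2 fold change of 0.52 for GSK inhibitor, or 1.43-fold. With the processed signals, which carry no such offset, it was 1.25, or 2.38-fold, with an error of 0.34 from the software's errors of both ratios. Without normalization, Cy3 with GSK inhibitor was 2.25-fold that with DMSO after subtraction of the local background, 2.46-fold after the software's own subtraction, 2.50-fold above the median of the negative controls and 1.47-fold with no subtraction at all. Ahrr was therefore higher with GSK inhibitor in each of these measures and past 2-fold where background was subtracted with no constant added.

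A gene was called changed at a difference of at least 2-fold, provided that both arrays compared showed it well above background in Cy3. In the main processing, 113 of 16465 genes were higher with GSK inhibitor (0.686%) and 122 lower (0.741%), and Ahrr was not among them. Under median centring in place of loess the split was 125 higher to 83 lower, without Ahrr as well. With the processed signals 390 were higher (2.37%), Ahrr among them, and 376 lower (2.28%). In order of log2 fold change, Ahrr took place 670 from the highest in the main processing and 208 in the processed signals, of these 16465 genes.

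Genes of similar brightness give the scale for a single spot. Genes that passed the background flag in Cy3 on each of the 4 arrays were divided by brightness into 20 groups, and Ahrr fell in the third group from the dimmest, with 812 genes. In that group the log2 fold change with GSK inhibitor had a robust SD, from the median absolute deviation and with true changes included, of 0.18 in the main processing and 0.54 in the processed signals. Ahrr lay at 2.88 and 2.31 times that spread, counted from 0 and not from the median of the group. A value as high or higher was found for 22 of the 812 genes, itself included, in the main processing (2.71%) and for 27 in the processed signals (3.33%). The difference thus exceeded the spread of similar genes in both, by less in the setting that gives the larger fold.

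**Figure D2:**
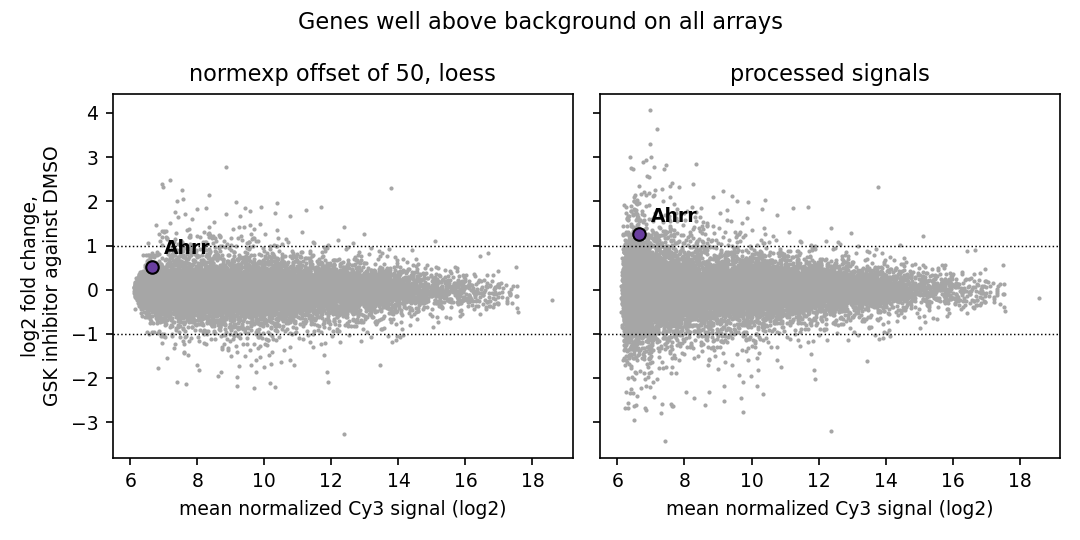
Log2 fold change with GSK inhibitor against DMSO (y axis) plotted against the mean normalized Cy3 signal on a log2 scale (x axis) for genes that passed the background flag in Cy3 on each of the 4 arrays, in the main processing on the left and with processed signals on the right. Each grey point is a gene, the purple point is Ahrr and dotted lines mark 2-fold; Ahrr is at 0.52 on the left and at 1.25 on the right, where other dim genes spread more widely too.

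Spots near Ahrr and a probe printed more than once were looked at next. Within 10 rows and 5 columns of the Ahrr spot, 147 other spots, which belong to other probes and carry differences between the cultures as well, were well above background in Cy3 with both DMSO and GSK inhibitor. Their median log2 fold change with GSK inhibitor was 0.11 in the main processing and 0.15 in the processed signals, and 6 and 2 of them, respectively, were as high as Ahrr. Of the 7 probes printed 5 times on each array, 1 was well above background on all arrays, with a mean processed Cy3 signal of 81.0. Its 5 spots had log2 fold changes with GSK inhibitor from -0.98 to 0.23 in the processed signals, with an SD of 0.46 between spots, a spread within the arrays that leaves out variation between cultures.

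With the other inhibitors Ahrr stayed near DMSO in the main processing. The log2 fold change was -0.11 with FGFR inhibitor, where the robust SD of the 812 similar genes was 0.17, and -0.03 with MEK inhibitor, where it was 0.18. With the processed signals the values were -0.67 and -0.18, with software errors of 0.41 and 0.38 and a robust SD of 0.43 and 0.41. The value with FGFR inhibitor in the processed signals was thus beyond that spread, and 73 of the 812 genes were as low or lower (8.99%). It varied with the estimate of background: net Cy3 with FGFR inhibitor was 0.961 of that with DMSO after subtraction of the local background and 0.709 after the software's subtraction. The value with MEK inhibitor was within its spread, and its sign turned with the processing, for example to 0.02 under median centring.

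Ahrr was called in neither of these comparisons, in the main processing or with the processed signals. With FGFR inhibitor, 133 of 16794 genes were higher (0.792%) and 100 lower (0.595%) in the main processing, 144 higher and 74 lower under median centring, and 349 higher (2.08%) and 375 lower (2.23%) in the processed signals. With MEK inhibitor, 7 of 16834 genes were higher (0.0416%) and 7 lower (0.0416%) in the main processing, 12 higher and 4 lower under median centring, and 122 higher (0.725%) and 138 lower (0.82%) in the processed signals.

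Set directly against the other inhibitors, GSK inhibitor gave the higher Ahrr value as well. Against FGFR inhibitor the log2 fold change was 0.63 in the main processing and 1.92 in the processed signals, with a robust SD of 0.18 and 0.49 among similar genes. In both, 11 of the 812 genes were as high or higher (1.35%). Against MEK inhibitor it was 0.55 and 1.43, with a robust SD of 0.19 and 0.46, and 18 genes (2.22%) and 16 genes (1.97%) were as high. These comparisons and the one with DMSO share the array with GSK inhibitor, so they are not independent of each other.

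The order of the Ahrr levels was therefore GSK inhibitor, DMSO, MEK inhibitor and FGFR inhibitor, in the main processing and in the processed signals alike. DMSO and MEK inhibitor did not differ beyond the spread of similar genes in either. MEK inhibitor was above FGFR inhibitor by 0.08 in the main processing, where the robust SD was 0.14, and by 0.49 in the processed signals, where it was 0.38. Below GSK inhibitor, the main processing thus separated no neighbours in this order, and DMSO and MEK inhibitor exchanged places in 4 of the 8 alternatives that could differ, median centring and Cy3 alone with quantile normalization among them.

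**Figure D3:**
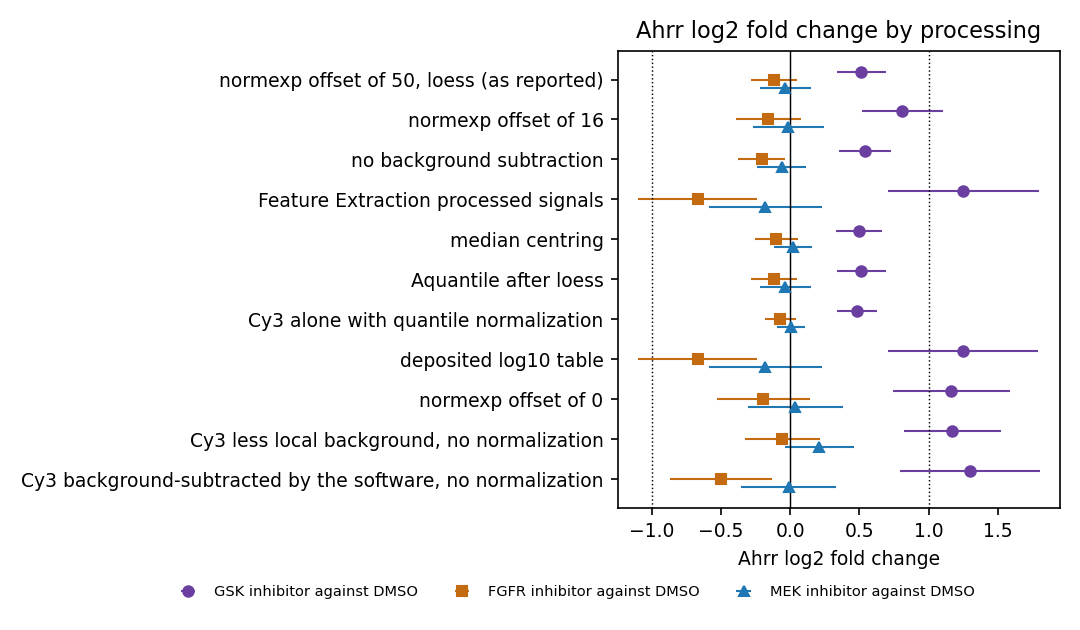
Log2 fold change of Ahrr against DMSO (x axis) for each inhibitor under each way of processing (y axis), with bars of 1 robust SD over the 812 genes of similar brightness and dotted lines at 2-fold. Values with GSK inhibitor lie between 0.48 and 1.30, those with FGFR inhibitor between -0.67 and -0.06 and those with MEK inhibitor between -0.18 and 0.21.

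Of the other genes of the pathway, few could be traced, because the tables held pair 5619 probes with a symbol, or 22.4% of the genes. Of 11 genes of the AhR complex and its partners, 3 could be traced to a probe, and 0 of these were changed 2-fold in any of the 3 comparisons with DMSO, in the main processing or the processed signals. Over all genes, 0.686% were called higher and 0.741% lower with GSK inhibitor in the main processing, so a count of 0 among so few is not a result about them. Their median log2 fold change with GSK inhibitor was -0.01 in the main processing, beside -0.0033 over all genes tested. Ahr, the receptor itself, had a processed Cy3 signal of 1046 under DMSO, 1489 under FGFR inhibitor, 1201 under MEK inhibitor and 1084 under GSK inhibitor. Its log2 fold change was -0.01 with GSK inhibitor, 0.01 with MEK inhibitor and 0.32 with FGFR inhibitor, where the robust SD of genes of its brightness was 0.24. Ahr was thus at the level of the control array where Ahrr was highest. Under median centring the value of Ahr with MEK inhibitor was 0.20, beyond a robust SD of 0.184.

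Ptges3, the p23 co-chaperone of Hsp90, had log2 fold changes of 0.08 with GSK inhibitor, 0.02 with FGFR inhibitor and 0.03 with MEK inhibitor. Ncoa2, a coactivator of nuclear receptors, had -0.07, 0.02 and 0.01 in the same order. In the main processing each of these values is smaller than the robust SD of genes of similar brightness. Under median centring Ptges3 with MEK inhibitor was at 0.20, beyond a robust SD of 0.146. Arnt, the partner of both AhR and Ahrr, was not analysed here.

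Among 11 genes known as AhR targets, 2 could be traced, Ahrr and Ugt1a6a. Ugt1a6a, an enzyme that conjugates phenols with glucuronic acid, had a processed Cy3 signal of 700 under DMSO, 712 under FGFR inhibitor, 666 under MEK inhibitor and 665 under GSK inhibitor. Its log2 fold change was -0.21 with GSK inhibitor, -0.19 with FGFR inhibitor and -0.31 with MEK inhibitor, against a robust SD of 0.30, 0.25 and 0.19. Under median centring the value with MEK inhibitor was -0.12, within a robust SD of 0.185. The one other AhR target reported here therefore did not share the higher value of Ahrr with GSK inhibitor. Cyp1a1, Cyp1a2, Cyp1b1, Nqo1 and Tiparp were not analysed here.

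Of 19 genes of the bHLH-PAS family, 4 could be traced, Ahr, Ahrr, Npas2 and Per2. Npas2, a partner of the clock protein Bmal1, was not well above background in Cy3 on any of the 4 arrays, and no fold is given for it. Per2, a repressor of the circadian clock, had a processed Cy3 signal of 529 under DMSO, 239 under FGFR inhibitor, 411 under MEK inhibitor and 298 under GSK inhibitor. Its log2 fold change was -0.97 with FGFR inhibitor, -0.57 with GSK inhibitor and -0.50 with MEK inhibitor, against a robust SD of 0.23, 0.26 and 0.19. In the processed signals the value with FGFR inhibitor was -1.30, past 2-fold. Per2 was thus lowest with FGFR inhibitor and below DMSO with all 3 inhibitors, whereas Ahrr was above DMSO with GSK inhibitor.

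BIO inhibits GSK-3, which marks β-catenin for degradation together with Axin and APC. Of 18 genes of this pathway and its targets, 2 could be traced, and neither was called in a comparison with DMSO, which at the shares called over all genes (0.686% higher and 0.741% lower with GSK inhibitor) says nothing about the list. With GSK inhibitor, the log2 fold change was 0.14 for the scaffold gene Axin1 and -0.08 for Apc, both within a robust SD of 0.28. None of the transcriptional targets on this list, such as Axin2 or Lef1, was analysed here, so the β-catenin response was not followed on these arrays.

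The neighbours of Ahrr on its chromosome were looked at for a change shared over the region. Of 10 genes listed as its neighbours, 9 lie within 7 places of it in the RefSeq order of protein-coding genes and Plekhg4 lies on another chromosome. A probe could be traced for 4 of the 9, and 0 were called with GSK inhibitor, beside 0.686% higher and 0.741% lower over all genes, so the count is not a result about them. The highest were Pdcd6, the gene next to Ahrr, which encodes a calcium-binding protein, at 0.23, and Brd9, a bromodomain protein, at 0.22. The lowest were Sdha, a subunit of succinate dehydrogenase, at 0.18, and Ccdc127, at -0.41. The median of these 4 was 0.20, beside -0.0033 over all genes tested, and only Ccdc127 and Pdcd6 were beyond the robust SD of similar genes, which was 0.26 and 0.23.

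The promoter of Ahrr is shown because it holds the core of the AhR response element. RefSeq sequence of 250 bases before to 50 after the start of the gene is given for chr13:74292282-74292581 in build GRCm38.p6, minus strand, with each match to GCGTG in capitals.
Ahrr promoter: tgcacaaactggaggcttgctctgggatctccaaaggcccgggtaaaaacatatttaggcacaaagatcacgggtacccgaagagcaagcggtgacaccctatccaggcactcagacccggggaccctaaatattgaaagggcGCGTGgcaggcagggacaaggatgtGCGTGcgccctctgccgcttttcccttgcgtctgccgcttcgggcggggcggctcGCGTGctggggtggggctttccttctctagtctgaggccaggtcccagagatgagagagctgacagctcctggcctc
The AhR core GCGTG was searched on both strands and found 3 times, from bases 144, 169 and 224 of this window. At least 1 match was found in 10639 of 32851 promoters of the same length (32.4%), and 3 or more in 1286 (3.91%). The window is rich in G and C, at 60.3% against a median of 52.7%, and among the 3499 promoters within 2 percentage points of its content, 1688 (48.2%) held at least 1 and 193 (5.52%) held 3 or more. The TCF/LEF core CTTTGA, bound by the partners of β-catenin, had 0 matches on either strand, and 5257 promoters (16%) held it. A match describes the letters only, and binding was not measured.

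The genes most like Ahrr were found by the distance between log2 fold changes with the 3 inhibitors, among 4242 other genes with a symbol and Cy3 well above background on all 4 arrays. In the main processing these were 1700011J10Rik (distance 0.0748), 3110045C21Rik (0.0776), Itm2c (0.0873), Tob2 (0.0906) and A930005H10Rik (0.112). Their log2 fold changes with GSK inhibitor lay between 0.43 and 0.58. With FGFR inhibitor they lay between -0.16 and -0.06 and with MEK inhibitor between -0.08 and 0.06. All 5 were brighter than Ahrr, with processed Cy3 under DMSO between 199 and 4933, against 73.5 for Ahrr. In the processed signals their log2 fold changes with GSK inhibitor were between 0.48 and 0.84, below the 1.25 of Ahrr. The normexp offset draws the changes of dim spots toward 0, and its part in this likeness was not tested. Itm2c encodes a membrane protein and Tob2 a protein that restrains cell growth. With the processed signals the same rule named 5 other genes, C130036L24Rik (0.395), A930008G19Rik (0.450), the homeobox gene En1 (0.477), AA986860 (0.505) and 5730410E15Rik (0.518). En1 had processed Cy3 signals of 172 under DMSO, 152 under FGFR inhibitor, 177 under MEK inhibitor and 360 under GSK inhibitor. The genes most like Ahrr therefore changed with the processing, and the likeness rests on 3 differences that share the DMSO array.

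The label of the cells was checked on markers. Of 22 ES cell markers, 3 could be traced to a probe, and the processed Cy3 signal was above Cy5 on each array, by 8.78 to 11.5 times for Tcfcp2l1, 6.69 to 11.6 times for Prdm14 and 21.1 to 24.7 times for Gbx2. Their log2 fold changes with GSK inhibitor were 0.41, -0.16 and -0.22 in the main processing, the first beyond a robust SD of 0.23 and the others within theirs. The value of Tcfcp2l1 was also 0.42 with FGFR inhibitor and 0.40 with MEK inhibitor, beyond a robust SD of 0.21 and 0.16, and that of Prdm14 was 0.60 and 0.10, against 0.23 and 0.17. At the spot of Tcfcp2l1 both channels were higher with all 3 inhibitors than with DMSO: processed Cy3 was 26660 under DMSO, 46350 under FGFR inhibitor, 48080 under MEK inhibitor and 58360 under GSK inhibitor, and Cy5 was 3035, 4015, 4307 and 5293. At the spot of Gbx2 both channels were lower with FGFR and MEK inhibitor, which the ratio of the processed signals alone does not show. Processed Cy3 was 8670 under DMSO, 1806 under FGFR inhibitor, 6080 under MEK inhibitor and 8704 under GSK inhibitor. Cy5 was 350, 83.3, 264 and 412. For FGFR inhibitor the normalized difference of Gbx2 from DMSO was -0.98 in log2 units in the main processing and -0.19 in the processed signals, against a robust SD of 0.20 in both, and for MEK inhibitor -0.22 and -0.10, against 0.15 and 0.16. Of 7 fibroblast markers, 1 could be traced, Col3a1, whose Cy3 signal was 0.00493 to 0.00576 of Cy5. Its Cy5 signal was very bright, between 119800 and 139300. Its Cy3 signal was still well above background on all 4 arrays, between 686.3 and 743.5. Of 7 markers of primitive endoderm, 1 could be traced, Sox17, whose Cy3 signal was 16.5 to 26.0 times that of Cy5. Its processed Cy3 signal was 612 under DMSO, 506 under FGFR inhibitor, 671 under MEK inhibitor and 488 under GSK inhibitor. Its Cy5 signal was dim, at 23.55 under DMSO, 28.82 under FGFR inhibitor, 29.49 under MEK inhibitor and 29.52 under GSK inhibitor. This reference signal was lowest under DMSO, which by itself lowers the processed ratio of Sox17 with each inhibitor against DMSO. The log2 fold change of Sox17 with GSK inhibitor was -0.37 in the main processing and -0.65 in the processed signals, beyond a robust SD of 0.29 and 0.39. With FGFR inhibitor it was -0.17 and -0.57, against 0.25 and 0.31, and with MEK inhibitor 0.11 and -0.19, against 0.18 and 0.24. Of the markers of mesoderm, neuroectoderm and trophectoderm, 0 could be traced to a probe through the tables held, and they were not analysed here. The part of other cell types in the value of Ahrr was not tested.

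The same supplementary table lists Ahrr after loss of Pou5f1 or Sox2, after withdrawal of LIF and after addition of retinoic acid. The arrays of those comparisons were not analysed here.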

How the data were processed

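The authors deposited scanner output of Agilent Feature Extraction 9.5.1.1 for 4 two-color arrays, with the raw intensity and local background of each spot and a processed intensity, after subtraction of background and dye correction in the same software. A second deposited file holds log10 values of 25030 probes. Recomputing processed Cy3 over Cy5, as log10, and adding the probe's mean log10 Cy5 gave the same entries within 0.000165.

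Of 43451 spots on an array, 1417 were controls. The other spots had a median Cy3 mean intensity of 73.8 under DMSO, 79.0 under FGFR inhibitor, 81.7 under MEK inhibitor and 78.4 under GSK inhibitor. Normexp background correction (offset 50) and loess normalization of each array were run in limma 3.58.1 under R 4.3.3, without controls after the background step and without the 3 or 4 outlier spots per array. Spots of the same probe were averaged. Python 3.11.15 with numpy 2.4.6, pandas 2.3.3 and matplotlib 3.10.9 was used for the rest. Precision is limited by the number of arrays. All arrays lay on 1 slide, so slide was no batch.

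Probes were named from the 5 supplementary tables held, and their symbols are printed as those tables give them, with older symbols of list members matched through RefSeq synonyms (GRCm38.p6). The named genes are Ahrr, every member traced to a probe of lists of the AhR complex, AhR targets and the bHLH-PAS family, the 2 highest and 2 lowest with GSK inhibitor of lists of GSK-3 and Wnt genes and of chromosomal neighbours, the 5 genes most like Ahrr, and cell type markers. A gene of these lists is not reported here and is left out of their counts. Ahrr and the lists were chosen with earlier results of these data known. Alternatives were the processed signals, the deposited table, offsets of 16 and 0, unsubtracted signals, Cy3 alone, median centring, Aquantile after loess, other filters on background and thresholds of 1.5-fold and 4-fold.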

Additional observations from a re-analysis of the deposited data

How the results depend on the processing

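Ahrr was higher with GSK inhibitor than with DMSO, FGFR inhibitor and MEK inhibitor under 8 alternatives, and lower with FGFR inhibitor than with DMSO under all 8. With MEK inhibitor against DMSO it was above 0 in 4 and below 0 in 4. Another 2 were run but are not counted, since Aquantile after loess leaves the log ratios as they are and the deposited table is computed from the processed signals. An offset of 0 and Cy3 without normalization, less the local background or as subtracted by the software, were chosen after seeing the data.

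The log2 fold change of Ahrr with GSK inhibitor against DMSO, FGFR inhibitor and MEK inhibitor was 0.81, 0.97 and 0.83 with a normexp offset of 16, and 1.16, 1.36 and 1.13 with an offset of 0. It was 1.25, 1.92 and 1.43 with the processed signals, and the deposited log10 table gave the same 1.25, 1.92 and 1.43. In Cy3 without normalization it was 1.17, 1.23 and 0.96 less the local background, and 1.30, 1.80 and 1.31 as subtracted by the software. The offset draws dim spots toward 0 by its construction. With FGFR inhibitor against DMSO the value was -0.67 with the processed signals, likewise -0.67 in the deposited table, and -0.50 in Cy3 as subtracted by the software. With MEK inhibitor it was 0.21 in Cy3 less the local background. For these the cause was not tested. The remaining alternatives moved the values of Ahrr by less than the robust SD of similar genes.

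The genes at least 2-fold higher with GSK, FGFR and MEK inhibitor numbered 113, 133 and 7 in the main processing. They were 391, 349 and 121 with the deposited table, 390, 349 and 122 with the processed signals, 495, 466 and 98 at a threshold of 1.5-fold, and 10, 11 and 0 at 4-fold. With MEK inhibitor there were 14 with an offset of 16 and 12 under median centring, which moved the median of all genes tested to 0.10 in that comparison. Of 75 values of 5 other genes of the lists under the alternatives that could differ, 71 moved by less than the robust SD. The others were Per2 with FGFR inhibitor, at -1.30 in the processed signals, and under median centring with MEK inhibitor Ahr and Ptges3, both at 0.20, and Ugt1a6a at -0.12.

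No paired analysis was possible because there was a single array for every condition. The Cy3 signal of Ahrr above the negative controls, 13.6 to 45.3 units, limits what can be read from this spot.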
